A study of Arabidopsis thaliana with 48 samples.

Results

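The 6 class III peroxidase genes described here over 16 groups of Arabidopsis thaliana arrays are RCI3 (AT1G05260), PRX15 (AT2G18150), PRX33 (AT3G49110), PRX34 (AT3G49120), PRX52 (AT5G05340) and PRX71 (AT5G64120). They are 6 of the 31004 features in the expression table, which also held 65 of the 67 other class III peroxidase genes listed. Rows were matched by locus identifier, and all 6 genes were found once. The 6 genes were chosen from measured values of these same arrays, with their behaviour already known, so their own levels and differences are given as a description, with no p-value. Where they passed or missed the call rule used for all features, that too is only a description. The other 65 measured class III peroxidases were tested.

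Class III peroxidases are secreted plant enzymes that use hydrogen peroxide to oxidise phenolic compounds, and they can also produce hydrogen peroxide and other reactive oxygen species in the cell wall. Through these reactions they cross-link or loosen wall polymers, polymerise lignin precursors and take part in the oxidative burst of defence, and their genes form a large family in plants. RCI3 was named as a RARE COLD INDUCIBLE gene, PRX33 and PRX34 are known for the oxidative burst after elicitor treatment, PRX52 for lignification of stems, and PRX71 for stiffening of walls and restraint of growth after wall damage.

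Each group combined a genotype, a tissue (leaf or apex) and a day length, with 3 arrays from 3 biological replicates. The mutants were svp (svp-41 FLC FRI, labelled FLC+/svp-), flc (SVP flc-3 FRI, labelled flc-/SVP+) and flc svp (svp-41 flc-3 FRI, labelled flc-/svp-), and they were set against wild type (WT; SVP FLC FRI, labelled FLC+/SVP+), all in the cultivar Columbia. SVP and FLC are MADS-box transcription factors that delay flowering. Every genotype, WT included, carried an active FRIGIDA allele, which keeps FLC transcription high, and the mutants had been crossed to a FRI-Sf2 line to obtain it. Seedlings were grown on soil for 2 weeks in short days (SDs), and the long-day (LD) groups then had 2 LDs. The labels give the SD groups 2 additional SDs whereas the study's methods mention none, so whether LD and SD plants had the same age is not settled. All tissue was taken at Zeitgeber 8. Day length and the time since the shift come as 1 treatment and cannot be told apart.

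Values are log2 signals, and array medians lay between 4.27 and 4.38. A signal below its array median is called low here, and since the arrays give no detection call, low signals may hold no transcript. FLC, the gene mutated in flc-3, was at 5.09 to 5.86 in leaves and 5.95 to 7.05 in apices of flc and flc svp, against 8.40 to 9.29 in leaves and 9.12 to 9.80 in apices of plants with functional FLC. SVP was at 6.46 to 7.63 in leaves and 6.51 to 6.86 in apices of svp and flc svp, against 7.77 to 8.59 and 7.41 to 8.01 in leaves and apices of plants with functional SVP. No array overlapped the other allele in either tissue. The meristem genes STM and KNAT1 had group means of 4.33 to 4.85 and 3.53 to 3.84 in leaves, against 6.92 to 7.72 and 6.53 to 6.96 in apices. CLV3 and WUS were low on all 24 apex arrays, and the 5 leaf genes checked, such as RBCS1A, were above the median on all 24 apex arrays as well as on all 24 leaf arrays (group means of RBCS1A 12.59 to 12.79 in apices, against 13.07 to 13.20 in leaves).

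RCI3 was low in leaves and high in apices, and its apex signal set the mutants apart from WT in SDs but not in LDs. In leaves it lay between 3.65 and 4.37 over all 24 arrays, of which 1 had RCI3 above the array median, whereas in apices it lay between 4.02 and 6.62, with 23 of 24 arrays above. Since these are whole tissues, fewer cells of a type and less RNA per cell cannot be told apart for this or any later difference. In LD apices RCI3 was at 6.31, 5.87 and 5.82 in svp, at 5.89, 5.81 and 5.13 in flc, at 5.60, 5.68 and 5.49 in flc svp, and at 5.44, 5.98 and 5.62 in WT. Every LD mutant overlapped WT. In SD apices RCI3 was at 4.69, 4.55 and 4.61 in svp, at 4.87, 5.81 and 5.31 in flc, at 4.44, 4.90 and 4.02 in flc svp, and at 6.26, 6.62 and 6.03 in WT. All 9 SD mutant arrays lay below all 3 WT arrays, the flc arrays lay between WT and svp, and only the lowest flc array came within the range of flc svp.

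RCI3 in SD apices had a fitted difference from WT of -1.69 ± 0.20 (svp), -0.98 ± 0.20 (flc) and -1.85 ± 0.20 (flc svp) on the log2 scale (± SE, 3 arrays each), which are 3.22-fold and 3.61-fold lower signals in svp and flc svp. The 3 comparisons share their WT arrays. In LD apices the differences were 0.32 ± 0.20, -0.07 ± 0.20 and -0.09 ± 0.20 for svp, flc and flc svp. Leaving out each array in turn kept the SD differences of svp and flc svp between -2.06 and -1.55. Root markers were checked beside this difference because many class III peroxidases are root genes. Of 11 such markers, PYK10, TIP2;3, PIP2;4 and CASP1 were above the array median on all 24 apex arrays and the other 7, among them the root hair genes EXPA7, COBL9 and RHD6, on none. Group means of PYK10 were 10.76 to 11.6 in apices against 8.06 to 8.52 in leaves, and those of PIP2;4 were 6.5 to 7.02 against 6.24 to 6.55. Those of TIP2;3 (4.54 to 4.74 against 4.65 to 5.09) and CASP1 (4.68 to 5.31 against 5.12 to 5.42) were not higher in apices. The mean signal of the 11 markers in SD apices was 4.53 to 4.54 in svp, 4.39 to 4.51 in flc, 4.5 to 4.56 in flc svp and 4.52 to 4.72 in WT. With 7 of them low, that mean can vary little, and its part in the RCI3 difference was not tested.

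RCI3 differed between day lengths in opposite directions in different genotypes. In apices the LD minus SD difference was 1.38 ± 0.20 in svp and 1.14 ± 0.20 in flc svp, with all LD arrays above all SD arrays in each. In WT it was -0.63 ± 0.20, with all LD arrays below all SD arrays, and in flc it was 0.28 ± 0.20 with overlapping arrays. In leaves the LD minus SD differences of RCI3 lay between -0.30 and 0.18 in the 4 genotypes. Among leaf groups, flc svp alone did not overlap WT, in SDs, with a difference of 0.30 ± 0.20. Leaving out arrays moved the flc svp apex difference between 0.94 and 1.35, and it no longer passed the 2-fold and adjusted p thresholds used below without LD replicate 2 (1.11) or 3 (1.17), without SD replicate 1 (1.13) or 3 (0.94), or with a separate fit for each tissue (1.14).

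**Figure D1:**
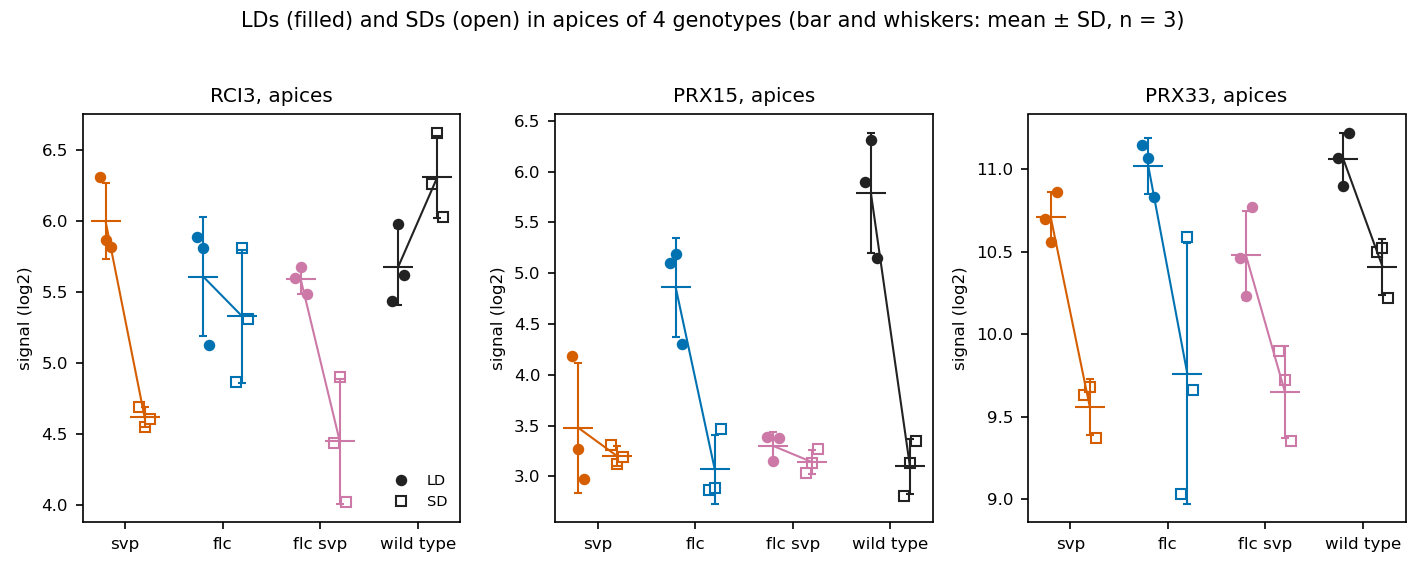
Signal (log2) of RCI3, PRX15 and PRX33 on each apex array, by genotype, with LDs as filled circles and SDs as open squares, and with the mean ± SD of 3 arrays. RCI3 was higher in LDs than in SDs in svp and flc svp and lower in WT, PRX15 was high in LDs in WT and flc alone among the genotypes, and PRX33 was higher in LDs in all 4.

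Ordered by mean, RCI3 was highest in WT SD apices (6.31 ± 0.29, SD, n = 3) and then in svp LD apices (6.0 ± 0.27), and the next 4 groups ran down to flc SD apices (5.33 ± 0.47) with each overlapping its neighbour. A gap without overlap followed, to svp SD apices (4.62 ± 0.07), with flc svp SD apices (4.45 ± 0.44) next. The 8 leaf groups came last, from 4.16 ± 0.18 in flc svp SD leaves to 3.86 ± 0.22 in flc svp LD leaves, with neighbours overlapping throughout, and the highest leaf group also overlapped flc svp SD apices.

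PRX15, a family member with no function well established, was low in 14 of 16 groups and was higher in LD apices of WT and flc, where 5 of the 6 arrays were above the array median and flc replicate 3 (4.30) was not. In LD apices its arrays were at 4.19, 3.27 and 2.97 in svp, at 5.10, 5.19 and 4.30 in flc, at 3.39, 3.15 and 3.38 in flc svp, and at 5.90, 6.31 and 5.15 in WT. All svp and flc svp arrays lay below all flc and WT arrays, although the highest svp array (4.19) and the lowest flc array (4.30) were close. In SD apices all 12 arrays lay between 2.81 and 3.47, and in leaves all 24 lay between 2.84 and 3.76, with no order among genotypes. PRX15 was above the array median on 5 of 48 arrays.

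PRX15 in LD apices had a fitted difference from WT of -2.31 ± 0.25 for svp, -0.92 ± 0.25 for flc and -2.48 ± 0.25 for flc svp, with the flc arrays overlapping WT. In SD apices the 3 differences lay between -0.02 and 0.11. The LD minus SD difference in apices was 0.27 ± 0.25 in svp, 1.79 ± 0.25 in flc, 0.16 ± 0.25 in flc svp and 2.69 ± 0.25 in WT, and in leaves it lay between -0.30 and -0.05. Because the lower values sit at the low end of the array's range, these differences may understate the change in transcript. Leaving out each array in turn kept the LD apex differences of svp and flc svp between -2.79 and -2.04.

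RCI3 and PRX15 therefore differed from WT under opposite day lengths in the genotypes that lack functional SVP. PRX15, unlike RCI3, was already low in SD apices of WT (mean 3.10), so a lower signal in the mutants could hardly show in SDs. Its values by day length below carry this limit. The difference between the svp effect in LDs and the svp effect in SDs, in apices, was 2.00 ± 0.29 for RCI3 and -2.42 ± 0.35 for PRX15. For the flc svp effect it was 1.76 ± 0.29 for RCI3 and -2.53 ± 0.35 for PRX15, and for the flc effect 0.90 ± 0.29 and -0.90 ± 0.35. A feature was called when it differed over 2-fold with an adjusted p under 0.01 (limma, Benjamini-Hochberg over all 31004 features). By that rule RCI3 and PRX15 were the only features called for the svp effect by day length in apices (0.00645% of all features), they were 2 of the 4 called for flc svp (0.0129%), and no feature was called for flc (0%). In leaves, where none of the 6 genes passed, the shares over all features were 0.00323% for svp, 0.1% for flc and 0.0871% for flc svp. Since the genes were chosen on these arrays, nothing is read from those counts. RCI3 no longer passed for flc svp without flc svp SD replicate 1 (1.75) or 3 (1.56), WT SD replicate 2 (1.62), WT LD replicate 1 (1.64) or 3 (1.76), or any of the 3 flc svp LD replicates (1.76, 1.74 and 1.79). With a separate fit for each tissue neither gene passed for svp (2.00 and -2.42) or flc svp (1.76 and -2.53).

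**Figure D2:**
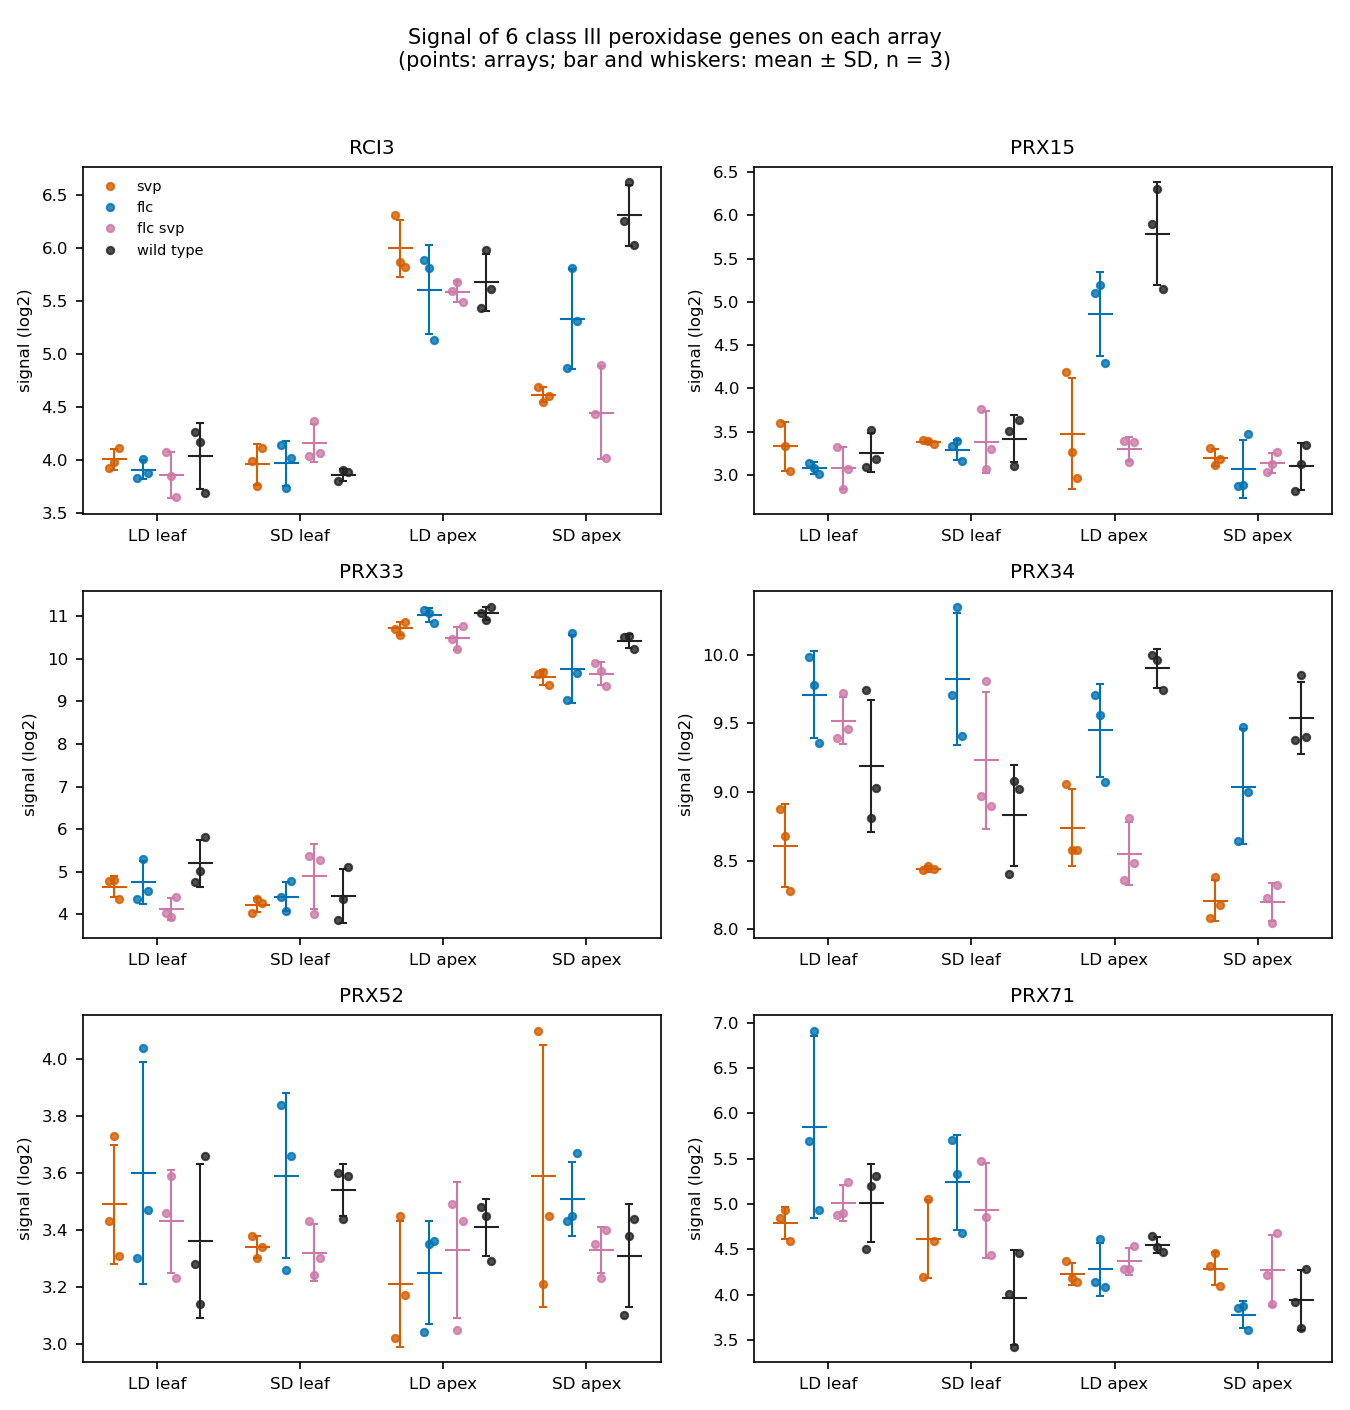
Signal (log2) of the 6 peroxidase genes on each of 48 arrays, grouped by day length and tissue, with genotypes in colour and the mean ± SD of 3 arrays. RCI3 and PRX33 were high in apices, PRX34 was high in both tissues, PRX15 was higher in LD apices of WT and flc than elsewhere, and PRX52 stayed between 3.02 and 4.10.

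PRX33 and PRX34 are near-identical neighbours on chromosome 3, with 1 other locus of the table between them, so part of their signal may be shared between their probes. Their profiles nevertheless differed. PRX33 was at 3.87 to 5.81 on the 24 leaf arrays, against 9.03 to 11.22 on the 24 apex arrays. In WT its leaf minus apex difference was -5.87 ± 0.32 in LDs and -5.97 ± 0.32 in SDs, the largest of the 6 genes. PRX34 was at 8.28 to 10.35 in leaves, against 8.05 to 10 in apices, and its leaf minus apex difference in WT was -0.71 ± 0.24 in LDs and -0.71 ± 0.24 in SDs. The tissue contrast of PRX33 thus had no counterpart of that size in PRX34.

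In apices PRX33 followed day length in all genotypes. In LD apices PRX33 was at 10.56 to 10.86 in svp, 10.83 to 11.15 in flc, 10.23 to 10.77 in flc svp and 10.90 to 11.22 in WT. In SD apices it was at 9.37 to 9.68 in svp, 9.03 to 10.59 in flc, 9.35 to 9.90 in flc svp and 10.22 to 10.52 in WT. All LD arrays lay above all SD arrays within each genotype, with LD minus SD differences of 1.15 ± 0.32 in svp, 1.26 ± 0.32 in flc, 0.83 ± 0.32 in flc svp and 0.65 ± 0.32 in WT. Against WT, PRX33 differed by -0.85 ± 0.32 in svp and -0.76 ± 0.32 in flc svp in SD apices, and by -0.36 ± 0.32 and -0.58 ± 0.32 in LD apices, with no overlap between mutant and WT arrays in any of these 4 settings. In LD leaves it differed from WT by -1.07 ± 0.32 in flc svp, again without overlap, and the change of that difference with day length, LDs minus SDs, was -1.51 ± 0.45.

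PRX34 was lower in apices without functional SVP at both day lengths. In LD apices its arrays were at 9.06, 8.58 and 8.58 in svp and between 8.36 and 8.81 in flc svp, against 9.07 to 9.71 in flc and 9.74 to 10 in WT. In SD apices they were at 8.08 to 8.38 in svp and 8.05 to 8.32 in flc svp, against 8.64 to 9.47 in flc and 9.38 to 9.85 in WT. At each day length the 6 arrays without functional SVP lay below the 6 arrays with it, in LDs by as little as 9.06 in svp against 9.07 in flc. The svp, flc and flc svp arrays differed from WT by -1.16 ± 0.24, -0.45 ± 0.24 and -1.35 ± 0.24 in LDs, and -1.33 ± 0.24, -0.50 ± 0.24 and -1.34 ± 0.24 in SDs. Unlike RCI3 and PRX15, PRX34 had an svp effect of like size at the 2 day lengths, and the LD minus SD change in that effect was 0.17 ± 0.34.

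In leaves the order of PRX34 was different. In SD leaves it was at 8.43 to 8.46 in svp, 9.41 to 10.35 in flc, 8.90 to 9.81 in flc svp and 8.40 to 9.08 in WT, and the flc arrays, 0.99 ± 0.24 above WT, did not overlap it. In LD leaves the svp, flc and flc svp differences were -0.58 ± 0.24, 0.52 ± 0.24 and 0.33 ± 0.24, each with overlapping arrays. The call of PRX34 in svp LD apices was lost without svp replicate 2 (-1.05) or 3 (-1.11), without each of the 3 WT arrays (-1.11, -1.16 and -1.21), without the replicate block (-1.16) and with arrays centred on their medians (-1.13). In svp SD apices it was lost without svp replicate 1 (-1.26) or WT replicate 2 (-1.2).

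PRX71 varied in leaves more than in apices. In SD leaves it was at 4.20, 5.06 and 4.59 in svp, at 5.71, 5.33 and 4.68 in flc, at 5.48, 4.86 and 4.44 in flc svp, and at 4.01, 3.43 and 4.46 in WT. The flc arrays lay above all WT arrays, and the svp and flc svp arrays overlapped WT. PRX71 there differed from WT by 0.65 ± 0.32 (svp), 1.27 ± 0.32 (flc) and 0.96 ± 0.32 (flc svp). In LD leaves PRX71 was at 4.59 to 4.93 in svp, 4.93 to 6.91 in flc, 4.88 to 5.24 in flc svp and 4.51 to 5.31 in WT, and no mutant was apart from WT. In WT leaves the LD minus SD difference was 1.04 ± 0.32, without overlap. In apices PRX71 stayed between 3.61 and 4.68.

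The SD leaf call of PRX71 in flc was not stable, although the difference stayed between 0.98 and 1.54 over the settings tried. It was no longer called without flc replicate 1 (1.03) or 2 (1.24), without WT replicate 1 (1.29) or 2 (0.98), or when each tissue was fitted apart (1.27). Genes of wounding, touch and defence moved in the same leaves. In SD leaves, of 16 such genes, svp had 9 called higher, flc 9 and flc svp 8, and none was called lower, with median differences of 1.57, 1.65 and 1.14 beside medians over all features of -0.01, -0.03 and -0.01. They included JAZ7, a jasmonate repressor gene, at 4.34 ± 0.45 in svp (adjusted p = 3.37e-08, limma), TCH4, a touch-induced wall enzyme gene, at 4.19 ± 0.52 in flc (adjusted p = 2.81e-07), and TCH3, a calmodulin-like gene, at 3.24 ± 0.36 in flc svp (adjusted p = 2.6e-08). Of all features 0.916% were called in SD leaves of svp, 1.78% in those of flc and 1.75% in those of flc svp. What part the wounding, touch and defence genes have in the PRX71 signal was not tested.

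PRX52 was low on all 48 arrays, between 3.02 and 4.10. Its group means spanned 0.39, and none of its mutant, day-length or tissue differences passed 0.38 in size. Its highest value, 4.10, was on the array of svp SD apex replicate 1.

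**Figure D3:**
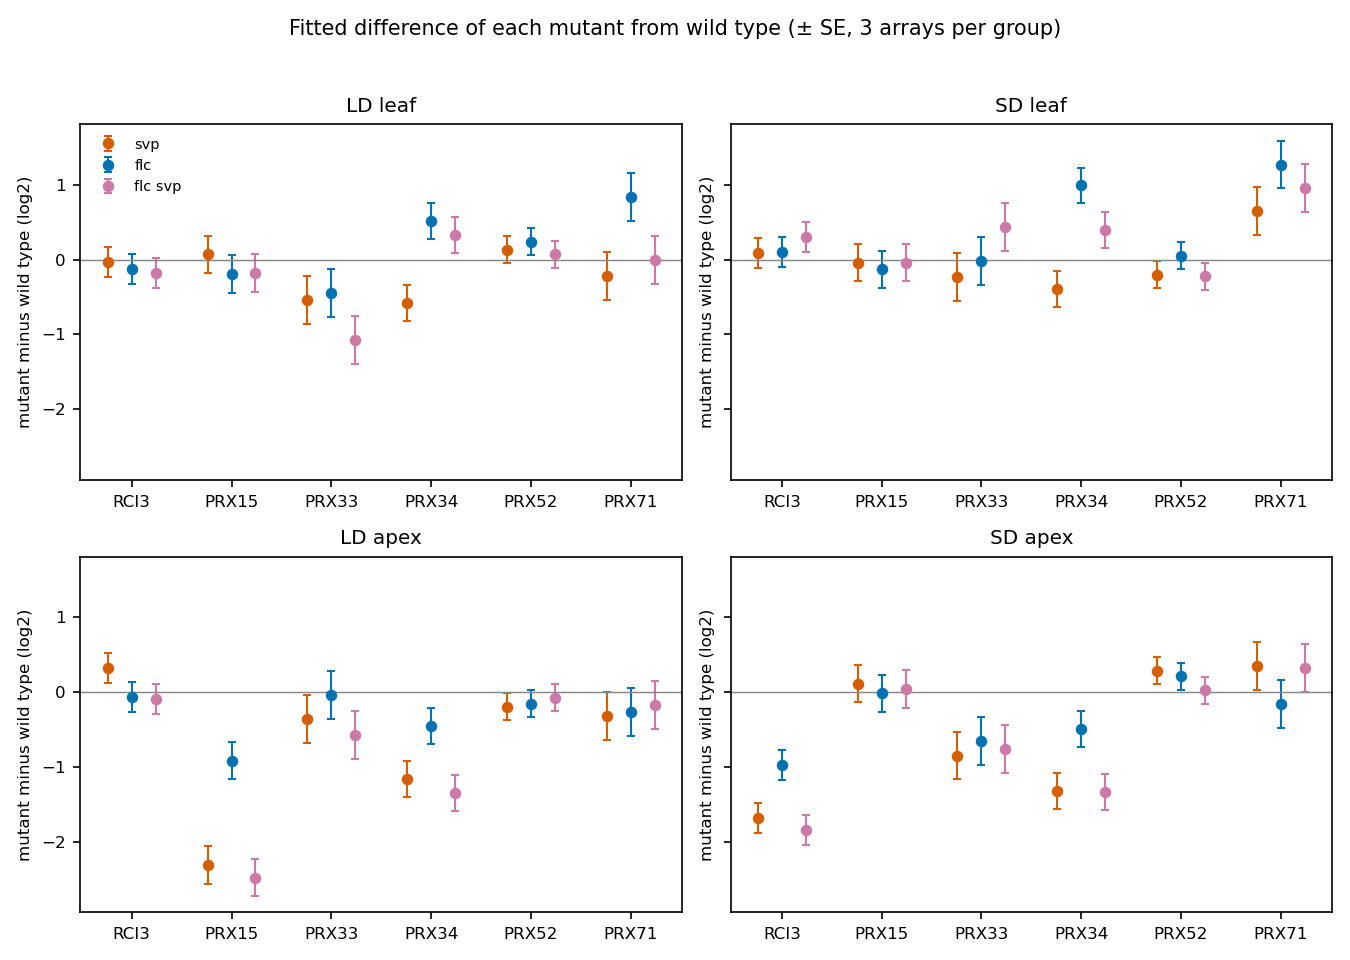
Fitted difference of svp, flc and flc svp from WT (log2, ± SE, 3 arrays per group) for the 6 peroxidase genes in LD leaves, SD leaves, LD apices and SD apices. The differences past -1 in apices belong to RCI3 in SDs, PRX15 in LDs and PRX34 in both, and in leaves PRX71 and PRX34 were highest in flc.

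Over mutants and settings, the number of the 6 genes that passed the call rule is set beside the share of all 31004 features that did, and nothing is read from it because the genes were chosen on these arrays. In LD leaves 0 of 6 passed in svp, flc and flc svp, where 0.184%, 0.829% and 0.855% of all features passed. In SD leaves 0, 1 and 0 passed, beside 0.916%, 1.78% and 1.75%. In LD apices 2, 0 and 2 passed (PRX15 and PRX34), beside 0.142%, 0.0645% and 0.393%. In SD apices 2, 0 and 2 passed (RCI3 and PRX34), beside 0.216%, 0.0742% and 0.474%. Between LDs and SDs, 0 of 6 passed in leaves of any genotype, beside 0.377% in svp, 0.839% in flc, 0.316% in flc svp and 0.264% in WT. In apices 1 of 6 passed in each genotype, RCI3 in svp (0.255% of all features) and flc svp (0.106%) and PRX15 in flc (0.242%) and WT (0.297%). Between leaf and apex of WT, 3 of 6 passed in LDs (RCI3, PRX15 and PRX33), beside 10.3%, and 2 of 6 in SDs (RCI3 and PRX33), beside 7.92%.

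For the interaction of the 2 mutations (the flc svp effect minus the sum of the svp and flc effects), none of the 6 passed. The shares over all features were 0.4% in LD leaves, 1.11% in SD leaves, 0.0129% in LD apices and 0.00968% in SD apices. The largest interaction values among the 6 were -0.96 ± 0.45 for PRX71 in SD leaves, 0.81 ± 0.29 for RCI3 in SD apices, and 0.75 for PRX15 in LD apices (± 0.35) and PRX33 in SD apices (± 0.45). For RCI3, PRX15 and PRX33 in those apices, the flc svp difference from WT was smaller in size than the svp and flc differences added together. For PRX15 the low end of the range limits this. Its means in LD apices of svp (3.48) and flc svp (3.30) were near that in SD apices of WT (3.10), which left little room for a further fall.

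Across the 16 group means the 6 genes did not share a profile. RCI3 and PRX33 had a Pearson r of 0.91, to which the tissue difference contributes, and within the 8 apex groups it was 0.73. RCI3 and PRX15 had r of 0.39 over 16 groups and 0.22 over the 8 apex groups. PRX33 and PRX34, the neighbouring pair, had r of -0.11 over 16 groups and 0.73 over the 8 apex groups. PRX71 had r of -0.60 with RCI3 and -0.63 with PRX33 over 16 groups, but 0.10 and 0.26 within leaf groups and -0.16 and 0.44 within apex groups. These values describe group means that share arrays and tissues. The genes lie on chromosomes 1 (RCI3), 2 (PRX15), 3 (PRX33 and PRX34) and 5 (PRX52 and PRX71). SVP lies on chromosome 2, 501 loci of the table from PRX15, and FLC on chromosome 5, 486 loci from PRX52 and 5619 from PRX71.

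The features most like RCI3 over the 16 group means, among 7684 whose means spanned at least 1 log2 unit, were AT3G22600 (r = 0.961), AT5G65320 (0.95), GASA5 (0.948), AT3G32980, which is PRX32 (0.946), and AT3G23090 (0.946). Within the 8 apex groups they were AT4G11190 (0.982), AT3G22600 (0.945), PRX32 (0.919), AT3G22620 (0.918) and AXR3 (0.889). Within the 8 leaf groups, where RCI3 hardly varied, the highest r was 0.884, for AT3G04721, followed by ATMG00050 (0.857), GA2OX8 (0.824), SMT3 (0.824) and ARF22 (0.818). The features most like PRX15 over 16 groups were AT4G36430, which is PRX49 (0.953), GRP9 (0.919), AT2G18370 (0.919), AT2G38390, which is PRX23 (0.917), and AT2G47200 (0.901). Of the features named, PRX32, PRX49 and PRX23 are class III peroxidases. RCI3 and PRX15 were chosen on these arrays and sharing of signal between probes was not checked, so nothing is read from this.

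The other 65 peroxidases were tested in the same fit, and in apices those called against WT were all lower in the mutants. In LD apices of svp PRX23 differed by -1.51 ± 0.25 (adjusted p = 0.000239, limma) and PRX49 by -1.44 ± 0.21 (adjusted p = 5.3e-05). In LD apices of flc svp PRX23 differed by -1.71 ± 0.25 (adjusted p = 2.02e-05), PRX49 by -1.48 ± 0.21 (2.25e-05), PRX22 by -1.66 ± 0.31 (0.00105) and PRX21 by -1.2 ± 0.24 (0.00221). In SD apices of svp PRX39 differed by -1.54 ± 0.28 (adjusted p = 0.00147), PRX22 by -1.53 ± 0.31 (0.00462), PRX30 by -1.05 ± 0.21 (0.00395) and PRX32 by -1.05 ± 0.21 (0.00366). In SD apices of flc svp PRX39 differed by -1.80 ± 0.28 (adjusted p = 7.34e-05), PRX22 by -1.68 ± 0.31 (0.00079) and PRX32 by -1.22 ± 0.21 (0.000271). The share of the 65 called was 3.08% in svp and 6.15% in flc svp in LDs, and 6.15% in svp and 4.62% in flc svp in SDs, against the shares of all features given above.

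PRX23 and PRX49 thus fell in LD apices of svp and flc svp, as PRX15 was low there, and PRX22, PRX32 and PRX39 fell in SD apices of the same mutants, where RCI3 was lower than in WT. PRX22 also fell in LD apices of flc svp, where the RCI3 arrays overlapped WT. PRX49, like PRX15, was already low in SD apices of WT (mean 3.22), so a fall in SDs could hardly show. The mean of PRX23 in SD apices of WT was 4.27, which also left little room. PRX39 is known as a peroxidase gene under UPBEAT1 in roots. PRX22 and PRX23 are adjacent and alike in sequence, as are PRX37 and PRX38, and PRX32 is close to PRX33 and PRX34, so signal may be shared among these probes. Sharing was not checked, for these genes or between PRX15 and other peroxidases such as PRX49. For flc no member of the 65 was called in either tissue at either day length (limma), with 6 and 11 at an unadjusted p under 0.05 in LD and SD leaves and 4 and 11 in LD and SD apices. Over the 65 the median difference in apices was -0.09 in svp and -0.07 in flc svp in LDs, and -0.10 and -0.09 in SDs, with 0 over all features in each.

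Some of these calls were lost when a single array was left out. In svp SD apices PRX32 was lost without each of the 6 arrays compared (-1.09 to -0.98), PRX30 without each but WT replicate 3 (-1.12 to -0.92), and PRX22 and PRX39 without svp replicate 2 or 3 or WT replicate 1 or 2 (-1.42 to -1.33 and -1.5 to -1.37). In flc svp SD apices PRX22 was lost without WT replicate 1 (-1.54) or 2 (-1.48), while PRX32 and PRX39 stayed called without each array. In LD apices PRX23 in svp was lost without WT replicate 2 (-1.15), PRX22 in flc svp without flc svp replicate 1 (-1.25) or WT replicate 2 (-1.42), and PRX21 without flc svp replicate 1 (-1.17) or 2 (-0.95) or WT replicate 3 (-0.90), while PRX49 stayed called in both mutants. A separate fit for each tissue ended the calls of PRX22 in svp (-1.53) and flc svp (-1.68) in SDs, and of PRX22 (-1.66) and PRX21 (-1.2) in flc svp in LDs. Over all comparisons with WT and between day lengths, that setting ended 13 of the 35 calls of the other peroxidases.

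**Figure D4:**
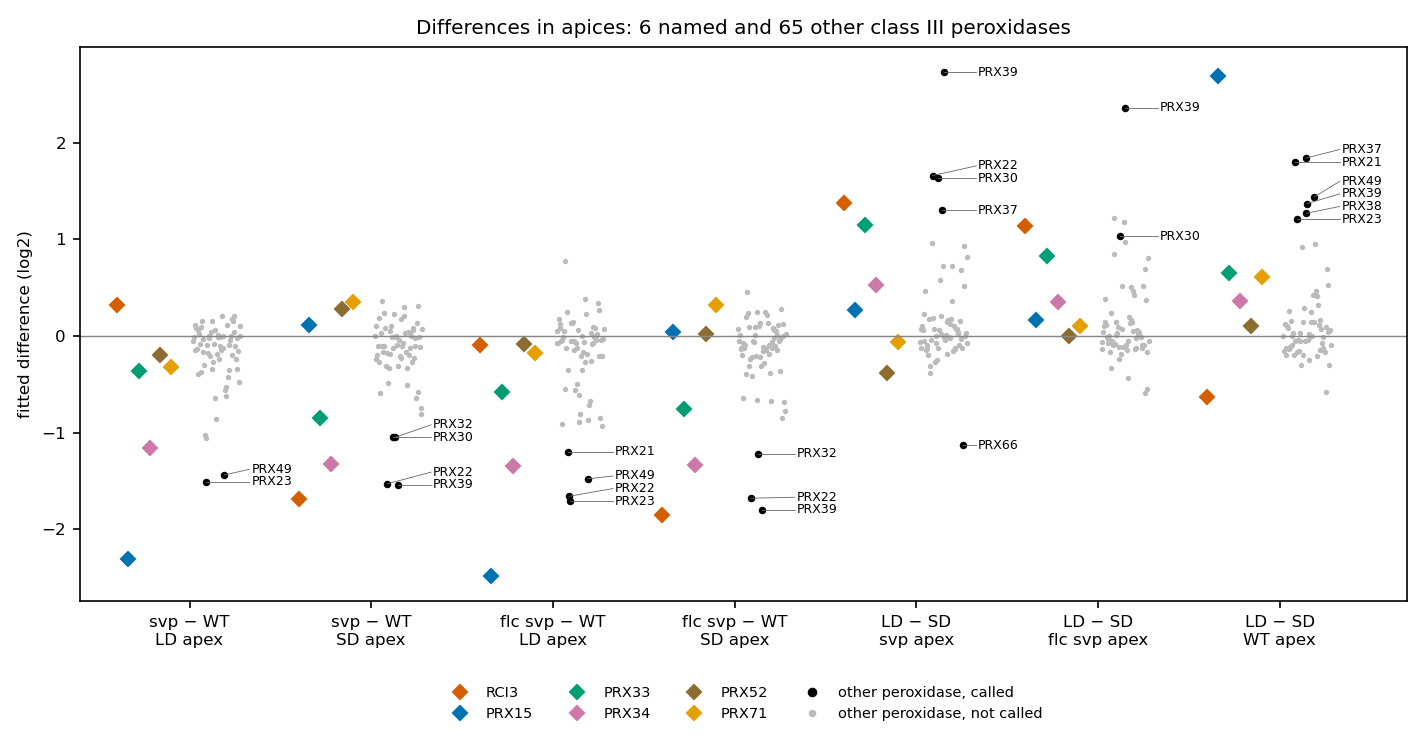
Fitted differences in apices (log2) of the 6 named peroxidases (coloured diamonds) and of the 65 other class III peroxidases (circles, black and named where called by limma at over 2-fold and adjusted p under 0.01, grey otherwise), for mutant minus WT and LD minus SD. Most of the 65 lie near 0, and all that were called against WT lie below it.

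In leaves 3 of the 65 were called against WT, all in flc svp, which is 1.54% of them in LDs and 3.08% in SDs, beside 0.855% and 1.75% of all features. PRX4 was 1.24 ± 0.20 higher in flc svp in LD leaves (adjusted p = 4.33e-05, limma). In SD leaves of flc svp PRX51 was 1.34 ± 0.35 higher (adjusted p = 0.00782) and PRX47, known from xylem lignification, 1.01 ± 0.25 higher (adjusted p = 0.0053). The means of PRX4 (4.08 in flc svp, 2.84 in WT) and PRX47 (4.15 and 3.14) lay below the lowest array median (4.27). Such low signals may hold no transcript. PRX51 was lost without each of the 6 arrays (1.21 to 1.45), and PRX47 without each but flc svp replicate 3 (0.88 to 1.09). None was called in svp (limma), with 8 in LDs and 4 in SDs at an unadjusted p under 0.05. No interaction of the mutations was called among the 65, with 5, 2, 3 and 4 at an unadjusted p under 0.05 in LD leaves, SD leaves, LD apices and SD apices. Nor was a change of a mutant's effect with day length, with 11 for svp, 4 for flc and 8 for flc svp in apices and 2, 2 and 7 in leaves.

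Between LDs and SDs the called members of the 65 were mostly in apices and mostly higher in LDs. In WT apices 6 were called, all higher: PRX37 by 1.84 ± 0.28 (adjusted p = 7.23e-05, limma), PRX21 by 1.80 ± 0.24 (1.19e-05), PRX49 by 1.44 ± 0.21 (6.21e-05), PRX39 by 1.37 ± 0.28 (0.00407), PRX38 by 1.27 ± 0.23 (0.00116) and PRX23 by 1.21 ± 0.25 (0.00316). PRX15, described above, was likewise higher in LDs in WT apices, by 2.69. In svp apices PRX39 was higher by 2.73 ± 0.28 (adjusted p = 2.39e-07), PRX22 by 1.66 ± 0.31 (0.0014), PRX30 by 1.63 ± 0.21 (8.77e-06) and PRX37 by 1.30 ± 0.28 (0.00475), and PRX66 was lower, by -1.13 ± 0.19 (0.000276). In flc apices PRX21 was higher by 1.95 ± 0.24 (adjusted p = 4.97e-06), PRX39 by 1.54 ± 0.28 (0.00115) and PRX38 by 1.07 ± 0.23 (0.00611). In flc svp apices PRX39 was higher by 2.36 ± 0.28 (adjusted p = 6.12e-06) and PRX30 by 1.03 ± 0.21 (0.00949). PRX39 was called in apices of all 4 genotypes. Of all features 0.255% were called between day lengths in apices of svp, 0.242% in flc, 0.106% in flc svp and 0.297% in WT.

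Among these, PRX39 in svp and flc svp, PRX30 in svp, PRX21 in WT and flc, PRX37 and PRX49 in WT and PRX66 in svp stayed called without each array. PRX30 in flc svp was lost without each array but LD replicate 1 (0.93 to 1.11), PRX37 in svp without each but LD replicate 3 (1.09 to 1.36), PRX38 in flc without each but SD replicate 2 (0.82 to 1.21), and PRX39 in WT without each but SD replicate 2 (1.13 to 1.44). PRX23 in WT was lost without LD replicate 1 or 2 or SD replicate 1 or 3 (0.85 to 1.26), PRX38 in WT without LD replicate 1 or 3 or SD replicate 3 (1.14 to 1.16), PRX39 in flc without SD replicate 1 or 3 (1.22 to 1.46), and PRX22 in svp without LD replicate 1 or SD replicate 2 or 3 (1.12 to 1.56). In leaves PRX39 was higher in LDs by 1.31 ± 0.28 in flc (adjusted p = 0.0024, limma) and 1.37 ± 0.28 in WT (0.00322), and PRX29 lower in WT by -1.0 ± 0.13 (3.27e-06). PRX39 was lost without flc LD or SD replicate 2 (1.14 and 1.2) and without each WT array but LD replicate 1 (1.07 to 1.39), and PRX29 without WT LD replicate 2 (-0.93) or SD replicate 3 (-0.89). None of the 65 was called in leaves of svp or flc svp, with 7 each at an unadjusted p under 0.05. Of all features 0.377% were called between day lengths in leaves of svp, 0.839% in flc, 0.316% in flc svp and 0.264% in WT.

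Those of the 65 called between leaf and apex were mostly lower in leaves, the direction seen for RCI3 and PRX33, although over all 65 the count below 0 was 34 in LDs and 32 in SDs. In WT 2 were called higher and 14 lower in leaves than in apices in LDs (24.6% of the 65, against 10.3% of all features), and 1 higher and 9 lower in SDs (15.4%, against 7.92%). Lowest in leaves relative to apices were PRX67 (-4.43 ± 0.19 in LDs, adjusted p = 1.66e-20, limma) and PRX30 (-4.41 ± 0.21 in LDs, 4.76e-19), and in SDs PRX70 (-4.50 ± 0.21, 2.02e-19) and PRX39 (-3.62 ± 0.28, 3.47e-13). PRX29 was higher in leaves at both day lengths (1.51 ± 0.13 in LDs, 1.94e-12, and 2.21 ± 0.13 in SDs, 1.08e-16), as was PRX19 in LDs (1.38 ± 0.10, 8.48e-14). In LDs the call of PRX21 was lost without leaf replicate 1 (-0.96) or apex replicate 3 (-0.74) and that of PRX49 without apex replicate 2 (-0.86).

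Of 10 NADPH oxidase genes, which make the superoxide that yields hydrogen peroxide in the wall, RBOHD, the main source of the defence burst, was called higher in SD leaves of flc (1.31 ± 0.19, adjusted p = 5.98e-06, limma) and flc svp (1.09 ± 0.19, adjusted p = 8.32e-05). In the same leaves PRX71 differed from WT by 1.27 in flc, without overlap, and by 0.96 in flc svp, with overlap. Of all features 1.78% were called in SD leaves of flc and 1.75% in those of flc svp. No NADPH oxidase was called in any other comparison with WT, with 0 to 3 at an unadjusted p under 0.05. Of 20 genes of monolignol synthesis and laccases, which make and oxidise the lignin precursors, none was called in any mutant or between day lengths, with 2 to 12 at an unadjusted p under 0.05. The median of these 20 in flc SD apices was -0.30, against 0.01 over all features. Medians in the other settings are not given here, so this value is not shown to be particular to flc.

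Of 13 cold-regulated genes, listed beside the cold-named RCI3, CBF3, a cold-response regulator, was lower in SD leaves of flc (-2.76 ± 0.36, adjusted p = 6.09e-07, limma) and flc svp (-3.19 ± 0.36, 2.94e-08), and RCI2B was higher in flc svp (1.28 ± 0.22, 5.63e-05). CBF1 was higher in LD leaves of flc (1.27 ± 0.31, 0.00821). The shares of all features called were 1.78% and 1.75% in SD leaves of flc and flc svp, and 0.829% in LD leaves of flc. None of the 13 was called in apices of any mutant (limma), with 0 to 2 at an unadjusted p under 0.05, although RCI3 differed from WT there in SDs. In these apex comparisons with WT 0.0645% to 0.474% of all features were called. Between LDs and SDs COR15A was lower in LD apices of svp (-1.72 ± 0.40, 0.0089) and flc (-1.98 ± 0.40, 0.0028), COR15B in flc (-2.40 ± 0.54, 0.00765) and WT (-2.47 ± 0.54, 0.00643), and KIN2 in svp (-1.24 ± 0.22, 0.000633), flc (-1.23 ± 0.22, 0.000669) and WT (-1.11 ± 0.22, 0.00226). In svp apices COR15A and KIN2 were thus lower in LDs while RCI3 was higher, whereas in WT apices COR15B, KIN2 and RCI3 (-0.63) were all lower in LDs. In leaves COR15A was lower in LDs in svp (-1.78 ± 0.40, 0.00648), flc (-1.82 ± 0.40, 0.00249) and WT (-1.79 ± 0.40, 0.00654), and CBF1 was higher in flc (1.5 ± 0.31, 0.00133). The share of all features called between day lengths was 0.106% to 0.297% in apices and 0.264% to 0.839% in leaves. Of the wounding, touch and defence list 1 gene was called lower in LD apices of svp and of flc svp, PR2 (-1.75 ± 0.32, 0.00136, and -1.52 ± 0.32, 0.00358). Between day lengths PR2 was called higher in LD apices of flc (1.89 ± 0.32, 0.000434, limma) and WT (2.32 ± 0.32, 1.92e-05), where PRX15 was higher too. Any link between PR2 and PRX15 was not tested. In SD apices TCH3 was called higher in flc (1.79 ± 0.36, 0.00746) and flc svp (1.61 ± 0.36, 0.00577), and its part in the RCI3 and PRX34 differences there was not tested. In LD leaves svp had 1 gene of that list called higher, flc 4 and flc svp 4, with none called lower. Of all features 0.184%, 0.829% and 0.855% were called in those leaves.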

How the data were processed

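RNA of 48 samples was hybridised to AGRONOMICS1 tiling arrays, and the authors deposited log2 expression values per gene made with RMA (robust multi-array average), whose version, array annotation and genome build are not given in the sources used here. The values of all 48 columns were used as deposited, and 30484 of 31004 loci matched the reference gene table. A linear model with 1 mean per group was fitted to all features with limma 3.58.1 in R 4.3.3, with the replicate number as a random block (duplicateCorrelation, consensus correlation 0.0336) as in the study's methods. Moderated p-values were adjusted by Benjamini-Hochberg over 31004 features within each contrast, in place of the study's Storey q, and a call needed over 2-fold and an adjusted p under 0.01. Same-numbered samples of different genotypes had mean residual correlations of 0.162 and 0.084 in LD and SD leaves and 0.103 and 0.065 in LD and SD apices, against -0.081, -0.042, -0.051 and -0.032 for different numbers, but not every pair passed 0.1. Only 3 arrays per group limit the precision.

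The 6 genes and all gene lists were chosen with earlier results of these arrays known. The text names, of the other peroxidases and for each contrast, up to 2 rises and 2 falls of largest size among called genes whose arrays did not overlap, up to 2 called genes of each further list, and the 5 features with the highest r to RCI3 or PRX15. Names beyond that, such as PRX30, PRX32, PRX21, PRX38 and KIN2, were added after their values were seen. Alternatives were no block, a separate fit for each tissue, a filter on low features, centring of arrays, no fold threshold, Storey's q and leaving out each array, the last with the consensus correlation of the full fit. The script was checked on simulated data. Figures were drawn with Python 3.11.15 and matplotlib 3.10.9. PRX1 and PRX2 were not analysed here.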

Additional observations from a re-analysis of the deposited data

Results flagged for a closer look

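In 7 cases the arrays of a comparison did not overlap in one setting, and did not overlap in the opposite direction in another. The first 2, for RCI3, equal the svp and flc svp effects in LDs minus SDs given above (2.00 ± 0.29 and 1.76 ± 0.29), described with no p because the gene was chosen on these arrays. The other 5 differences were not tested. The LD minus SD difference of RCI3 in apices was 1.38 in svp and -0.63 in WT, 2.00 apart, and 1.14 in flc svp against -0.63 in WT, 1.76 apart. RCI3 in SDs differed between flc svp and WT by 0.30 ± 0.20 in leaves and -1.85 ± 0.20 in apices, 2.15 apart. Both of these leaf means were low (4.16 and 3.86). PRX15 in flc differed between LDs and SDs by -0.22 ± 0.25 in leaves and 1.79 ± 0.25 in apices, with leaves minus apices at -2.00. Here too both leaf means were low (3.08 and 3.29). PRX51 in SDs differed between flc svp and WT by 1.34 in leaves and -0.67 in apices, 2.02 apart. PRX4 in leaves differed between LDs and SDs by -0.30 in svp and 0.70 in flc svp, with svp minus flc svp at -1.0. PRX19 in LDs differed between flc svp and WT by -0.36 in leaves and 0.25 in apices, with leaves minus apices at -0.60.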

How the results depend on the processing

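The counts concern the 65 other class III peroxidases. At least 1 mutant was called against WT for 1 gene in LD leaves, 2 in SD leaves, 4 in LD apices and 4 in SD apices. Leaving out each of 48 arrays gave 1 to 2, 0 to 2, 2 to 6 and 2 to 4. The SD leaf count was 0 without any of the 3 WT arrays or flc svp replicate 1 or 2 and 1 without flc svp replicate 3, the LD leaf count 2 without flc replicate 1 or WT replicate 1 or 2, the LD apex count 2 without flc svp replicate 1, and the SD apex count 2 without WT replicate 1 or 2. Between day lengths 2 genes were called in leaves (1 to 2, with 1 without WT LD replicate 2 or WT SD replicate 3) and 9 in apices (8 to 11), between leaf and apex 16 in LDs (15 to 17) and 10 in SDs (10 to 11), and for the interaction 0 throughout (0 to 0). Without the replicate block the SD leaf count was 0, and the other 11 counts stayed within 1.5 times. With a separate fit for each tissue, which gives no leaf against apex value, the SD leaf count was 0 and the LD apex count 2. Keeping features whose highest group mean passed the median of all values gave 0 in LD leaves and 1 in SD leaves. With no fold threshold the counts were 2 in LD leaves, 5 in SD leaves, 10 in LD apices and 16 between leaf and apex in SDs. Centring arrays and Storey's q kept all 12 counts within 1.5 times. Where a cause is not given by the setting itself, the cause was not tested. No single gene's difference turned its direction while called. Low signals close to the bottom of the range limit what PRX15 and PRX52 can show.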
